A study of Mus musculus with 24 samples.

Results

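Transcripts of 10 genes of the epidermal growth factor (EGF) receptor system were followed through wounding at 3 skin sites. They are the 6 ligand genes Areg (amphiregulin), Hbegf (heparin-binding EGF-like growth factor), Epgn (epigen), Ereg (epiregulin), Tgfa (transforming growth factor alpha) and Btc (betacellulin), the 3 receptor genes Egfr, Erbb2 and Erbb3, and Errfi1, whose product MIG6 binds and inhibits active receptor. The genes were taken by symbol from the deposited table of 18368 genes, and all 10 were measured and passed the filter on low values in every fit. The RNA came from 12 CD1 mice that were 7 weeks old and described as in telogen, the resting phase of the hair cycle, when they were shaved and wounded by 2 mm full-thickness excision at a single site, namely abdomen, back or cheek (4 mice each). Each mouse gave 1 library of its day 3 wound and 1 of adjacent unwounded skin, both taken with a 2 mm punch. Abdomen and back mice carried 2 wounds and cheek mice 1, so the number of wounds cannot be told apart from the site in comparisons that involve the cheek. All mice had been anaesthetised and had received an analgesic before wounding. No mouse was transgenic, and no other treatment was described.

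The ligands are made as membrane proteins and are shed from the cell surface by metalloproteinases. They bind EGFR, and some of them also ERBB4. The bound receptor pairs with itself or with another ERBB, ERBB2 being the preferred partner although it has no known ligand, while ERBB3 binds neuregulins and signals poorly by itself. In skin the system is known for driving keratinocyte migration and proliferation, and keratinocytes both make and receive several of the ligands. Errfi1 is itself a target of the pathway and acts as feedback.

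All values are FPKM, counts of sequenced fragments corrected for the length of the transcript and for the fragments mapped in each library, which can therefore be set side by side between genes. The 24 libraries summed to between 490830 and 608888 FPKM, with between 15781 and 16577 genes above 0. FPKM hold no fragment counts, so the depth is unknown. Markers of keratinocytes and fibroblasts were high in every library (Krt5 at 1420 FPKM or more, Dcn at 1100 or more), as the skin label says. Wound libraries differed from unwounded skin in their cell type markers. The summed level of 6 wound-edge keratinocyte genes (Krt6a, Krt6b, Krt16, Krt17, Stfa1 and Sprr1b) lay between 394 and 1320 FPKM in unwounded libraries and between 2510 and 17200 in wounds, and that of 6 neutrophil genes between 8.18 and 37.5 and between 344 and 2390. Stfa1 was listed at 0 in every unwounded back library, and the neutrophil gene Ly6g in every unwounded abdomen and back library. The sum of 6 fibroblast genes was lower in wounds, between 6850 and 18000 FPKM in unwounded skin and between 4080 and 9480 in wounds, although cheek mouse 4 went from 6850 to 7600. Adipocyte sums were lower in the wound in 12 of 12 mice and skeletal muscle sums in 10 of 12. The tissue was sequenced whole, so fewer cells of a type and less RNA per cell cannot be told apart, and the part of these markers in the results was not tested. The unwounded cheek library of mouse 4 stood apart, with 4280 FPKM summed over 6 hair follicle genes, where the other 23 libraries had between 4.09 and 74.5. Of these 6 genes, 5 encode keratins of the growing follicle, so that this library went against the telogen label. The next highest sums were 74.5 FPKM in unwounded skin of back mouse 2, 33.5 in unwounded skin of cheek mouse 3 and 25.7 in the wound of back mouse 2. For the 7 genes whose highest or lowest value of the 4 unwounded cheek libraries was in that of mouse 4, the cheek wound effect is given with and without mouse 4.

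Promoter sequences are shown first, because 4 of the 6 ligand genes, including some that moved in opposite directions, are neighbours on chromosome 5. RefSeq windows (GRCm38.p6) of 250 bases before to 50 after the start site were matched for 7 of the 10 genes, with 2 windows for Errfi1. Ereg, Hbegf and Erbb3 had none. The 150 bases before the start site follow, 5′ to 3′ along the gene, for Areg and Epgn (higher in back and cheek wounds), Btc (lower in wounds) and the second window of Errfi1, which passed the threshold at no site and is shown because it holds the same pair of motifs as Areg. Capitals mark a cyclic AMP response element (CRE, TGACGTCA) or a TATA box (TATAAA), searched on both strands.
Areg, chr5:91139449-91139598, plus strand: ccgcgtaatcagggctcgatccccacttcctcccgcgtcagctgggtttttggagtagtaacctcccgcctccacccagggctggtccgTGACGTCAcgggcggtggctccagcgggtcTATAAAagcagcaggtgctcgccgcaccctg
Epgn, chr5:91027367-91027516, plus strand: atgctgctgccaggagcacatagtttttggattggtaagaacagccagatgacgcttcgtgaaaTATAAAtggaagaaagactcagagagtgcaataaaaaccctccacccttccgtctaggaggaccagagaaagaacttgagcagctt
Btc, chr5:91402995-91403144, minus strand: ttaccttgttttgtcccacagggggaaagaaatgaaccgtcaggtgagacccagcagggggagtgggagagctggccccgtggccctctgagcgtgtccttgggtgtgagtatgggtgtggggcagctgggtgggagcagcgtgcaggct
Errfi1, chr4:150854920-150855069, plus strand: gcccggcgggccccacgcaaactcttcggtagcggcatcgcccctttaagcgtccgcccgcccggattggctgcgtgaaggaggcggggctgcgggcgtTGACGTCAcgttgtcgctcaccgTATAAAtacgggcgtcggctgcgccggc

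The Areg window held a CRE that began 61 bases before the start site and a TATA box that began 31 bases before it. The second Errfi1 window had the same pair of motifs, at 51 and 28 bases. The Epgn window had a TATA box at 86 bases and no CRE. The windows of Btc, Tgfa, Egfr, Erbb2 and the first window of Errfi1 held neither motif. Of all 32851 windows in the RefSeq table, 1.79% held the CRE and 13.6% the TATA box. The AP-1 motif (TGANTCA, in 7.81% of all windows) and the NF-kB motif (in 4.51%) were in none of the 8 windows. Such matches describe the sequence only, and the absence of a motif concerns only these windows.

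In unwounded skin Errfi1 and the receptor transcripts Erbb2 and Egfr had the highest medians of the 10, followed by Btc, the most abundant ligand. Over the 12 unwounded libraries the median was 23.9 FPKM for Errfi1, 22.1 for Erbb2, 19.3 for Egfr and 15.04 for Btc. Neighbours in this order overlapped, Errfi1 being above Erbb2 in 7 of the 12 libraries and Egfr above Btc in 7. Erbb3 (9.15, below Btc in 11 of 12), Tgfa (7.03) and Ereg (4.33) came next. Epgn (2.56), Hbegf (2.36, above Areg in 10 of 12) and Areg (1.63) were the lowest.

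Wounding reordered the ligands and left the order of the receptors as it was. In the 12 wounds the medians were 26.9 FPKM for Errfi1, 19.7 for Erbb2, 14.0 for Egfr and 10.4 for Erbb3. Among the ligands, Tgfa (9.07) and Hbegf (8.48) now stood highest and could not be ordered, with Tgfa above Hbegf in 5 of 12 wounds. Btc had a median of 5.86 FPKM, Epgn 4.87, Areg 4.76 and Ereg 3.30.

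**Figure D1:**
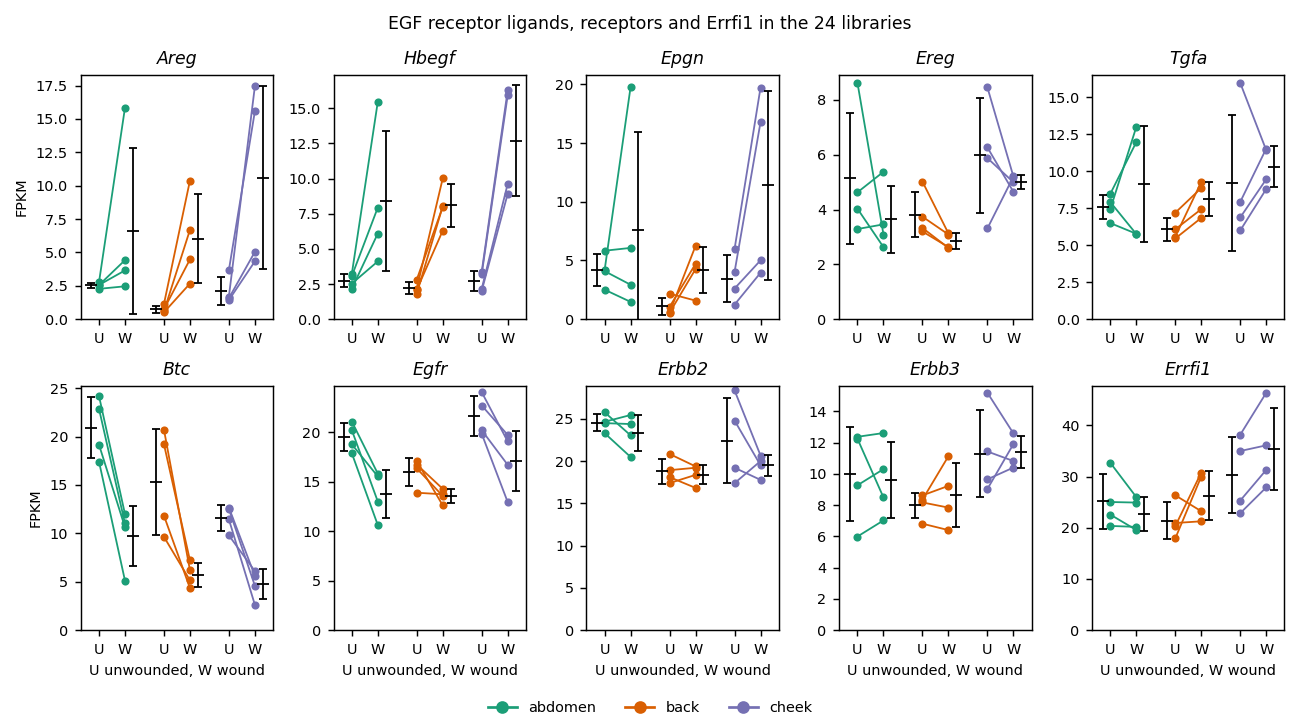
FPKM of the 10 genes (vertical axes, starting at 0, each with its own scale) in the 24 libraries, as pairs of unwounded (U) and wound (W) libraries joined by a line for each mouse, with the mean and SD of each group in black (n = 4). Hbegf and Areg rise and Btc and Egfr fall in 12 of 12 mice, while Epgn is above 16 FPKM in 3 wounds and below 7 in the other 9.

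The first question was which of the 10 genes respond to wounding at each site. Levels were compared on the log2(FPKM + 0.5) scale with limma, in 1 model of the 24 libraries with a term for each mouse. Hbegf rose and Btc fell at all 3 sites, Areg and Epgn rose at back and cheek, and Egfr fell at abdomen and cheek. Ereg, Tgfa, Erbb2, Erbb3 and Errfi1 did not pass the threshold at any site. The count was 3 of 10 genes at the abdomen, where 32.9% of the 14423 tested genes passed, 4 of 10 at the back (45.9%) and 5 of 10 at the cheek (36.6%), so the set as a whole was near the background. At a threshold of 0.001, Hbegf passed at the abdomen (4.96% of all genes did), Areg, Hbegf and Btc at the back (14.4%) and Hbegf and Btc at the cheek (8.69%). The median log2 fold change of the 6 ligands was 0.22 at the abdomen, 0.97 at the back and 0.84 at the cheek, and that of the 3 receptors -0.075, -0.027 and -0.17, beside -0.015, 0.066 and 0.012 for all tested genes.

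**Figure D2:**
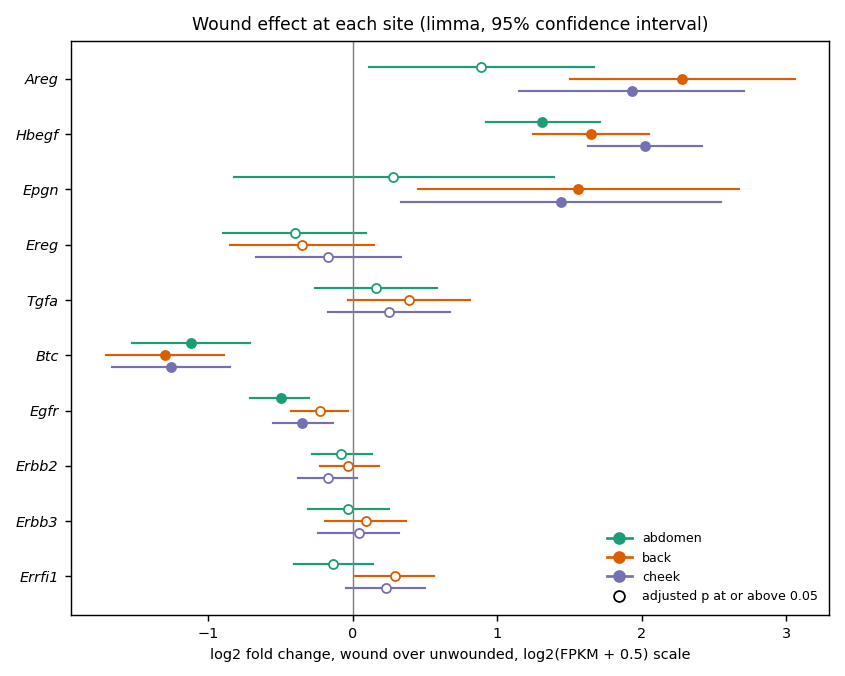
Log2 fold change of wound over unwounded skin for the 10 genes (horizontal axis, log2(FPKM + 0.5) scale) at the 3 sites, with 95% confidence intervals from limma and filled points for an adjusted p under 0.05. The intervals of Hbegf lie above 0 and those of Btc below 0 at the 3 sites, and the intervals of Epgn are the widest.

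Hbegf, a ligand that binds heparan sulfate and both EGFR and ERBB4, was the ligand with the least spread in its rise. In the 4 abdomen mice it went from 3.22, 3.06, 2.17 and 2.53 FPKM in unwounded skin to 15.5, 7.94, 6.09 and 4.11 in the wound of the same mouse. In the back it went from 1.82, 2.82, 2.18 and 2.09 to 8.04, 7.99, 10.02 and 6.30, and in the cheek from 2.16, 2.02, 3.21 and 3.38 to 9.63, 8.92, 15.9 and 16.3. The lowest of the 12 wounds was above the highest unwounded library (3.38 FPKM), which held for 5.57% of all tested genes. The log2 fold change was 1.31 ± 0.18 (SE) at the abdomen, 1.65 ± 0.18 at the back and 2.02 ± 0.18 at the cheek, or 2.49-, 3.14- and 4.06-fold (limma adjusted p = 2.7e-04, 2.2e-05 and 5.7e-06). Each call was kept when any 1 mouse of the site was left out, the cheek value being 1.99 without cheek mouse 4.

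Areg, a low-affinity EGFR ligand, was higher in the wound in 12 of 12 mice (14.4% of all tested genes were), but by very different amounts. The abdomen wounds had 15.8, 4.42, 3.65 and 2.46 FPKM against 2.76, 2.55, 2.56 and 2.27 in the unwounded skin of the same mice, so that mouse 1 rose 5.74-fold and mouse 4 hardly at all, and the groups overlapped. The back wounds had 4.47, 6.68, 10.4 and 2.66 FPKM against 0.740, 0.590, 1.13 and 0.510, and the cheek wounds 4.33, 5.04, 17.4 and 15.6 against 1.43, 1.57, 1.69 and 3.68. At both of these sites every wound was above every unwounded library, as for 25.0% of all tested genes at the back and 16.7% at the cheek. On the log2 scale the change was 2.28 ± 0.36 (SE) at the back (limma adjusted p = 4.1e-04) and 1.93 ± 0.36 at the cheek (0.0017), while the abdomen, at 0.89 ± 0.36, missed the threshold (0.076). Without abdomen mouse 1 the abdomen value was 0.41 (limma adjusted p = 0.35). The unwounded cheek library rich in hair follicle transcripts was also the one with 3.68 FPKM of Areg, and without that mouse the cheek value was 1.93 (limma adjusted p = 0.007).

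Epgn, the ligand with the lowest affinity for EGFR, was the most variable of the 10 genes between wounds. Its wounds ranged from 1.47 to 19.8 FPKM, a 13.5-fold range, and its unwounded libraries from 0.550 to 5.98. Abdomen mice 1 to 4 had 19.8, 6.07, 2.93 and 1.47 FPKM in the wound and 4.20, 5.83, 4.09 and 2.51 in unwounded skin. The back wounds had 4.27, 4.72, 6.25 and 1.58 against 0.550, 1.05, 0.570 and 2.17, and the cheek wounds 3.95, 5.01, 19.7 and 16.8 against 1.24, 2.61, 5.98 and 4.02. It was higher in the wound in 9 of 12 mice, and the 3 exceptions were abdomen mice 3 and 4 and back mouse 4. On the log2 scale Epgn rose by 1.56 ± 0.50 (SE) at the back (limma adjusted p = 0.026), 1.44 ± 0.50 at the cheek (0.045), and the value at the abdomen was 0.28 ± 0.50 (0.70).

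Both Epgn calls were weak. Without the mouse term they were lost (limma adjusted p = 0.053 at the back and 0.087 at the cheek). The back call was also lost without back mouse 1 (0.096), 2 (0.084) or 3 (0.12). The cheek call was lost whichever cheek mouse was left out (limma adjusted p between 0.076 and 0.13). The back call was lost in the fit of the 8 back libraries alone (0.085) and the cheek call with a pseudocount of 0.1 FPKM (0.055).

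Btc, which binds EGFR and ERBB4, moved the opposite way and fell in 12 of 12 mice (9.81% of all tested genes did). The abdomen went from 17.4, 24.2, 19.2 and 22.9 FPKM in unwounded skin to 5.12, 11.99, 10.63 and 11.02 in the wound. The back went from 19.2, 9.64, 11.8 and 20.7 to 7.22, 5.15, 4.35 and 6.21, and the cheek from 12.7, 12.5, 11.4 and 9.79 to 5.61, 4.59, 2.62 and 6.10. Within each site every wound was below every unwounded library, as for 11.0%, 15.4% and 15.0% of all tested genes at abdomen, back and cheek. The log2 fold change was -1.12 ± 0.19 (SE), -1.30 ± 0.19 and -1.26 ± 0.19, or 2.18-, 2.46- and 2.39-fold lower (limma adjusted p = 0.0011, 1.8e-04 and 3.4e-04). Each call was kept when any 1 mouse of the site was left out, the cheek value being -1.47 (2.0e-04) without cheek mouse 4. Adipocyte and sebaceous gland marker sums were lower in the wound in 12 of 12 mice as well, and fibroblast sums in 11 of 12. The adipocyte sum was 349 to 828 FPKM in wounds and 442 to 1370 in unwounded skin, with 6, 6 and 5 of its 6 genes called lower at abdomen, back and cheek, and the sebaceous gland sum was 1210 to 2210 and 1380 to 3150. The 7 sebaceous gland genes were mixed, with 3, 2 and 4 called lower and 1, 2 and 0 called higher at abdomen, back and cheek. Of the 6 fibroblast genes, 4, 3 and 3 were called lower and 0, 1 and 1 higher. Hair follicle sums were also lower in 12 of 12 mice, but only 1, 0 and 1 of the 6 genes were called lower. Schwann cell and melanocyte sums were lower in 11 of 12. The suprabasal keratinocyte sum was higher in the wound in 11 of 12 mice (5700 to 8240 and 3050 to 6820), the exception being back mouse 1. The part of these markers in the fall of Btc was not tested.

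Ereg and Tgfa, a ligand of EGFR and ERBB4 and a high-affinity ligand of EGFR, did not pass the threshold. Ereg lay between 3.20 and 8.62 FPKM in unwounded skin and between 2.60 and 5.38 in wounds, and was lower in the wound in 9 of 12 mice, including all 4 back mice. Its log2 fold change was -0.40 at the abdomen, -0.35 at the back and -0.17 at the cheek (limma adjusted p = 0.19, 0.24 and 0.60), and without cheek mouse 4, whose unwounded library had the lowest Ereg of the 4 (3.31 FPKM), the cheek value was -0.42 (0.18). Tgfa lay between 5.45 and 16.0 FPKM in unwounded skin and between 5.75 and 12.99 in wounds, and was higher in the wound in 9 of 12 mice. Its log2 fold change was 0.16, 0.39 and 0.25 (limma adjusted p = 0.55, 0.12 and 0.34), with 95% confidence intervals that reached up to 0.58, 0.81 and 0.67. The highest Tgfa value of the 24 was the unwounded cheek library of mouse 4 (16.0 FPKM, the other 3 being 5.99 to 7.92), and without that mouse the cheek value was 0.49 (limma adjusted p = 0.057). In the fit of the 8 back libraries alone, Ereg (-0.35, limma adjusted p = 0.043) and Tgfa (0.39, 0.018) passed.

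The summed level of the 6 ligand transcripts moved differently from mouse to mouse. Its median was 37.5 FPKM both in unwounded skin (22.9 to 52.7) and in wounds (27.3 to 74.6), but within mice it was higher in the wound in 4 of 4 cheek mice (mean 35.0 and 54.7 FPKM) and 3 of 4 back mice (29.3 and 35.0) and lower in 3 of 4 abdomen mice (43.1 and 45.0, with mouse 1 higher). Btc made up a median of 44.9% of that sum in unwounded skin (24.4% to 58.5%) and 14.5% in wounds (3.62% to 39.0%), and it was the largest of the 6 in 11 of 12 unwounded and in 3 of 12 wound libraries. Those 3 wounds were abdomen mice 2, 3 and 4. Areg, Hbegf and Epgn together went from 19.8% (9.47% to 28.1%) to 49.3% (28.4% to 73.3%). The sum exceeded 70 FPKM in 3 wounds, abdomen mouse 1 (74.6) and cheek mice 3 (72.5) and 4 (71.4), and the other 9 had at most 45.5. These shares follow from the levels given above and were not tested separately.

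**Figure D3:**
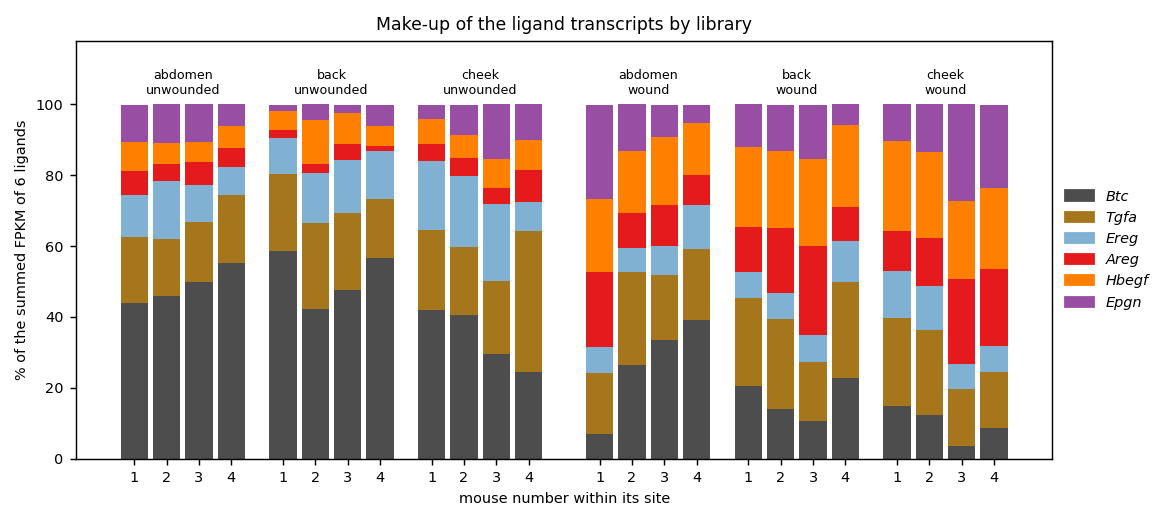
Share of each of the 6 ligand genes in their summed FPKM (vertical axis, percent of the sum) in each of the 24 libraries, by state, site and mouse number. Btc has the largest share in 11 of 12 unwounded libraries and in 3 of 12 wounds, all abdominal.

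Of the 3 receptors, only Egfr passed the threshold at any site. Egfr, the receptor of all 6 ligands, was lower in the wound in 12 of 12 mice (9.81% of all tested genes were). The abdomen went from 18.8, 21.1, 17.9 and 20.2 FPKM to 15.55, 15.83, 10.63 and 13.01, the back from 13.9, 16.8, 16.4 and 17.1 to 13.7, 14.3, 13.6 and 12.6, and the cheek from 24.1, 19.9, 20.2 and 22.7 to 19.09, 12.95, 16.72 and 19.74. Every wound was below every unwounded library at abdomen and cheek, as for 11.0% and 15.0% of all tested genes. Wounds and unwounded skin overlapped at the back, where the wound of mouse 1 (13.7) was close to its unwounded skin (13.9). Its log2 fold change was -0.50 ± 0.09 (SE) at the abdomen, -0.23 ± 0.09 at the back and -0.35 ± 0.09 at the cheek (limma adjusted p = 0.0019, 0.062 and 0.012). The cheek call was lost without cheek mouse 2 (-0.26, limma adjusted p = 0.080), and the back value passed without back mouse 1 (-0.30, limma adjusted p = 0.039), with median-ratio scaling (0.034) and with quantile normalisation (0.019).

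Erbb2 and Erbb3 did not pass the threshold at any site. Erbb2 lay between 17.4 and 28.4 FPKM in unwounded skin and between 16.8 and 25.4 in wounds, with log2 fold changes of -0.08, -0.03 and -0.17 and 95% confidence intervals within -0.38 and 0.18. The cheek value passed without cheek mouse 2 (-0.30, limma adjusted p = 0.028) and with quantile normalisation (-0.23, 0.045). Erbb3 lay between 5.99 and 15.2 FPKM in unwounded skin and between 6.40 and 12.6 in wounds, with log2 fold changes of -0.03, 0.09 and 0.04. The values for Erbb3 at back and cheek changed sign under quantile normalisation (-0.012 and -0.017), so no direction can be given. The highest unwounded values of both genes were again in cheek mouse 4 (28.4 and 15.2 FPKM), and without that mouse the cheek values were -0.083 for Erbb2 (limma adjusted p = 0.54) and 0.14 for Erbb3 (0.49).

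Errfi1 did not pass the threshold at any site. It was lower in the wound in 4 of 4 abdomen mice (25.0, 32.7, 22.6 and 20.4 FPKM in unwounded skin and 24.92, 25.99, 19.56 and 20.17 in wounds) and higher in 4 of 4 cheek mice (22.9, 35.0, 38.2 and 25.3 against 27.9, 36.1, 46.4 and 31.3). In the back it went from 17.9, 20.3, 26.3 and 20.9 FPKM to 30, 30.78, 23.23 and 21.26, with mouse 3 lower. The log2 fold change was -0.14, 0.29 and 0.23 at abdomen, back and cheek (limma adjusted p = 0.43, 0.079 and 0.18), and the F test of a difference between sites did not pass (limma adjusted p = 0.41). Without back mouse 3 the back value was 0.45 (limma adjusted p = 0.016).

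The second question was whether the response to wounding differed between sites. None of the 10 genes passed the moderated F test of the 3 wound effects (limma), and only 3 of the 14423 tested genes did (0.0208%). At an unadjusted p under 0.05 there was 1 of the 10, Areg (limma adjusted p = 0.37), where 12.9% of all genes had such a p. The Areg response was larger in the back than in the abdomen by 1.39 on the log2 scale (95% confidence interval 0.29 to 2.49, limma adjusted p = 0.24). The Hbegf response was larger in the cheek than in the abdomen by 0.71 (0.15 to 1.27, limma adjusted p = 0.35), and for Epgn the difference between back and abdomen was 1.27 (-0.29 to 2.84, limma adjusted p = 0.41). The calls for Areg and Epgn at back and cheek and not at the abdomen are therefore not shown to be a difference between sites. The back and abdomen responses of Btc differed by -0.18 (-0.76 to 0.40).

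The third question was how the sites differed before wounding and in the wound. In unwounded skin 1 of the 10 genes differed, Areg between back and abdomen, where 2.67% of 13956 tested genes passed. Its level was 0.742 ± 0.275 FPKM in the back and 2.53 ± 0.201 in the abdomen (SD, n = 4), without overlap (10.7% of all genes had every back library below every abdomen library). The log2 fold change was -1.31 ± 0.23 (SE), 2.48-fold lower in the back (limma adjusted p = 0.012). The median of all tested genes in this comparison was -0.12, and the call was kept without any 1 of the 8 mice but lost in the fit of all 24 libraries (limma adjusted p = 0.078). Epgn was 1.08 ± 0.759 FPKM in the back and 4.16 ± 1.36 in the abdomen, a log2 fold change of -1.62 ± 0.41 that missed the threshold (0.059) and passed without abdomen mouse 4 (-1.81, limma adjusted p = 0.044) or back mouse 4 (-1.90, 0.037). At an unadjusted p under 0.05 there were 5 (Areg, Btc, Egfr, Epgn and Erbb2), a share not counted for all genes. Epgn, Egfr and Erbb2 also had every back library below every abdomen library. Erbb2 (-0.38) passed in the fit of all 24 libraries (limma adjusted p = 0.033).

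No gene of the 10 passed in unwounded cheek against abdomen (2.57% of all genes did) or cheek against back (1.05%) with limma. At an unadjusted p under 0.05 there were 1 (Btc, where 19.0% of all genes had such a p) and 4 (Areg, Egfr, Epgn and Errfi1, 21.6%). Btc was 11.6 ± 1.32 FPKM in the unwounded cheek and 20.9 ± 3.15 in the abdomen (SD, n = 4), which did not overlap (4.49% of all genes were lower in this way), and differed by -0.82 ± 0.21 (SE) on the log2 scale (limma adjusted p = 0.062), or by -0.74 without cheek mouse 4 (0.13). Areg was 2.09 ± 1.06 FPKM in the cheek, 1.01 ± 0.23 above the back on the log2 scale (limma adjusted p = 0.059), and 0.75 above it without cheek mouse 4 (0.072). Skeletal muscle sums in unwounded skin were 471 to 14600 FPKM in the abdomen, 13000 to 20600 in the back and 10600 to 21500 in the cheek. The part of muscle in the differences between unwounded sites was not tested.

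In the wounds, no gene of the 10 separated back from abdomen with limma (1.27% of 14023 tested genes did), and 2 did at an unadjusted p under 0.05 (16.5% of all genes did), Btc and Erbb2. Errfi1 separated cheek from abdomen (10.8% of all genes did) and Ereg separated cheek from back (2.50%). Errfi1 was 35.4 ± 8.04 FPKM in cheek wounds and 22.7 ± 3.27 in abdomen wounds (SD, n = 4), and the lowest cheek wound (27.9) was above the highest abdomen wound (25.99), as for 13.6% of all genes. The log2 difference was 0.62 ± 0.17 (SE, limma adjusted p = 0.038). That call was lost without abdomen mouse 3 (0.11) or 4 (0.070) and without cheek mouse 2 (0.087), 3 (0.086) or 4 (0.058). It was also lost with median-ratio scaling (0.053), under which Btc (-1.02) and Erbb2 (-0.32), both lower in cheek wounds, passed instead. Ereg was 5.01 ± 0.262 FPKM in cheek wounds and 2.86 ± 0.287 in back wounds, again without overlap (17.2% of all genes were higher in this way), and the log2 difference was 0.72 ± 0.16 (SE, limma adjusted p = 0.044). This call was lost whichever of the 8 mice was left out (limma adjusted p between 0.056 and 0.11) and under both other scalings (0.080 and 0.12). Without abdomen mouse 1, Ereg (0.64), Hbegf (1.00) and Btc (-1.22) passed between cheek and abdomen wounds beside Errfi1.

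The level of Areg, Hbegf and Epgn varied together from wound to wound. Abdomen mouse 1 and cheek mice 3 and 4 had the 3 highest values of each of these genes, and abdomen mouse 4 the lowest of each. Over the 12 wounds Areg and Epgn correlated on the log2 scale with r = 0.957 (rho = 0.944), Hbegf and Epgn with r = 0.953 (rho = 0.846) and Areg and Hbegf with r = 0.933 (rho = 0.881). The permutation p of r, adjusted over the 15 pairs of ligands, was 7.5e-05, 1.5e-04 and 7.5e-05, and that of rho 1.5e-04, 0.0050 and 0.0030. Without the 2 wounds farthest from the median r was 0.920, 0.942 and 0.887, and after subtracting the mean of each site 0.966, 0.973 and 0.938. In the 12 unwounded libraries the same pairs had r = 0.710, 0.658 and 0.571 (adjusted permutation p = 0.085, 0.088 and 0.16). Other ligand pairs also passed in the wounds, so such relations were not confined to these 3 genes. Examples are Hbegf and Tgfa (r = 0.792), Tgfa and Epgn (0.800), Ereg and Hbegf (0.703), Areg and Btc (-0.675) and Hbegf and Btc (-0.686). Their adjusted permutation p of r was 0.0067, 0.0067, 0.029, 0.029 and 0.029, and that of rho 0.058, 0.023, 0.058, 0.023 and 0.027. Without the 2 farthest wounds their r was 0.69, 0.741, 0.539, -0.52 and -0.703. In the 4 back wounds alone it was -0.214, 0.102, -0.0753, -0.798 and -0.637. The pairs of Areg, Hbegf and Epgn had r = 0.931, 0.949 and 0.955 there, in the order given above. Tgfa and Btc did not pass (r = -0.375, 0.23). The libraries share their composition, and pairs of this kind are not independent of it.

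The summed wound-edge keratinocyte markers varied in a similar order, but their mean log2 level did not. The sum was highest in abdomen mouse 1 (17200 FPKM) and cheek mouse 3 (14000), followed by back mouse 3 (12300) and by back mouse 2 and cheek mouse 4 (10200 each), and lowest in abdomen mouse 4 (2510). Over the 12 wounds this sum correlated with Areg (r = 0.780, rho = 0.902), Epgn (r = 0.768, rho = 0.860) and Hbegf (r = 0.758, rho = 0.664). The permutation p of r, adjusted over 12 relations of 6 ligands with 2 marker lists, was 0.014 for each, and that of rho 0.0022, 0.0034 and 0.092. Without the 2 farthest wounds r was 0.859, 0.808 and 0.782, and within sites (site means subtracted) 0.858, 0.918 and 0.917. For Btc r was -0.553, for Tgfa 0.593 and for Ereg 0.152 (adjusted permutation p = 0.12, 0.098 and 0.71). With the mean log2 level of the 6 marker genes in place of their sum, abdomen mouse 3 was highest (10.1) and cheek mouse 1 lowest (8.12), and none of these relations passed (Areg r = 0.50 and rho = 0.580, Epgn 0.478 and 0.552, Hbegf 0.337 and 0.336, adjusted permutation p between 0.20 and 0.43). These r were 0.835, 0.817 and 0.794 without the 2 farthest wounds and 0.747, 0.721 and 0.698 within sites. The summed neutrophil markers gave r = 0.389 with Areg, 0.442 with Epgn and 0.479 with Hbegf (adjusted permutation p = 0.26, 0.21 and 0.20), and these values turned negative without the 2 farthest wounds (-0.144, -0.145 and -0.186) but were 0.506, 0.646 and 0.701 within sites. With Tgfa they gave r = 0.592 (adjusted permutation p = 0.098), 0.177 without the 2 farthest wounds and 0.781 within sites. With the mean log2 level of the neutrophil genes r was 0.522 with Areg, 0.515 with Epgn and 0.59 with Hbegf. These values exceeded those of the wound-edge mean log2 level (adjusted permutation p = 0.20 for each). They were 0.104, 0.0336 and 0.0653 without the 2 farthest wounds and 0.543, 0.617 and 0.649 within sites. Btc had r = -0.752 with this neutrophil level (adjusted permutation p = 0.06), and -0.794 within sites. These marker lists were set beside the ligands after the marker sums had been seen.

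**Figure D4:**
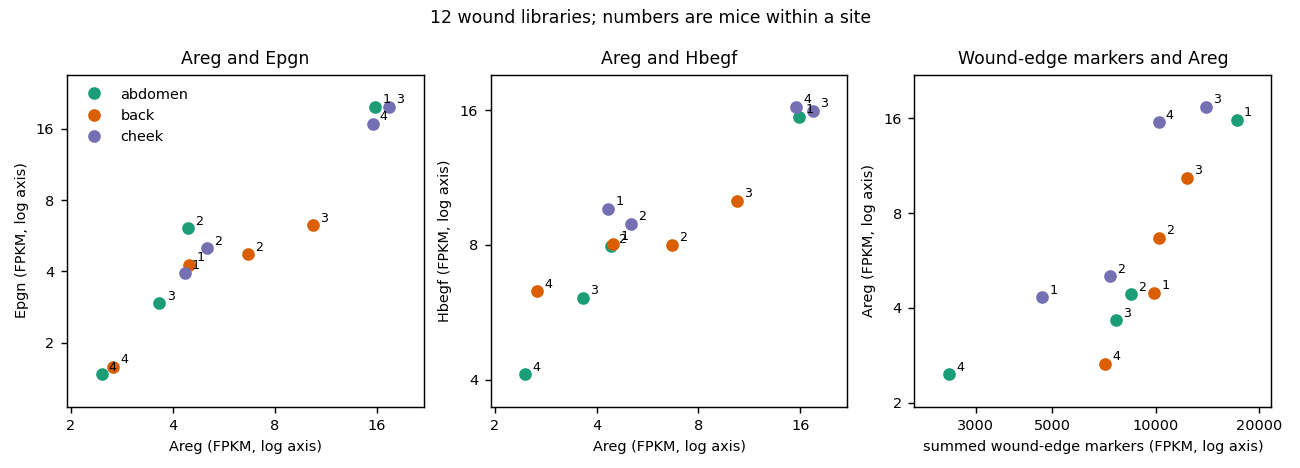
Epgn against Areg, Hbegf against Areg and Areg against the summed wound-edge keratinocyte markers in the 12 wound libraries (FPKM on log axes), with the mouse number beside each point. Abdomen mouse 1 and cheek mice 3 and 4 lie at the top of each panel and abdomen mouse 4 at the bottom.

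Epgn, Ereg, Areg and Btc lie in this order within 375 kb of chromosome 5 (GRCm38, 91027517 to 91402994), and no other tested gene starts between them. Epgn and Areg rose at back and cheek, Ereg, which lies between them, did not pass the threshold, and Btc at the end of the group fell. On the side of Epgn the next tested gene, Mthfd2l, did not pass at any site (log2 fold change -0.01, 0.24 and 0.05). Beyond it the neutrophil-attracting chemokine genes Cxcl2 (a mean of 0.0542 FPKM in unwounded skin and 207 in wounds) and Cxcl1 (0.422 and 16.8) rose at all 3 sites (limma adjusted p between 6.2e-08 and 1.3e-04). On the side of Btc, Parm1 rose at the back (0.59, limma adjusted p = 0.0087), Rchy1 did not pass at any site, and Cdkl2, a protein kinase gene, fell at all 3 sites (-0.48, -0.36 and -0.51, limma adjusted p = 0.0065, 0.019 and 0.0036) and in 12 of 12 mice. Hbegf lies on chromosome 18 and Tgfa on chromosome 6.

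**Figure D5:**
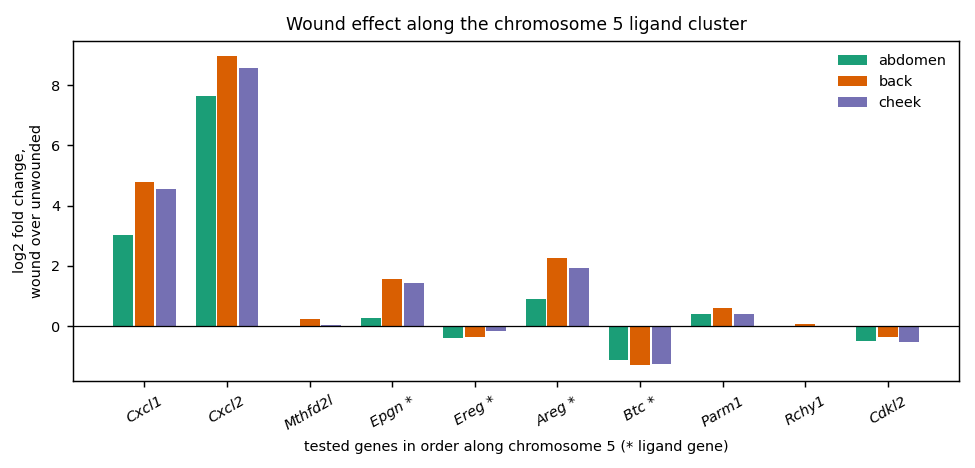
Log2 fold change of wound over unwounded skin (vertical axis) at the 3 sites for the 4 ligand genes of chromosome 5 (asterisks) and the 3 tested genes on each side, in their order along the chromosome (not to scale). Cxcl1 and Cxcl2 rise most, Epgn and Areg rise at back and cheek, and Btc and Cdkl2 fall at the 3 sites.

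Each gene was also matched with the genes whose centred log2 levels over the 24 libraries differed from its own by the smallest root mean square. The closest non-member to Hbegf was Cemip, a hyaluronan-degrading protein (0.268, with Hbegf itself varying by 0.933), and the closest to Areg was Cdhr1 (0.473 of 1.15). Ptprz1 was the second closest to Areg (0.516) and the closest to Epgn (0.645 of 1.14). Cdh4 was closest to Btc (0.285 of 0.795). Among the 10 genes, Tgfa and Erbb3 had the smallest difference (0.267), and Areg and Btc the largest (1.82). Tgfa and Erbb3 themselves varied by only 0.391 and 0.322, and genes that vary little differ little on this measure. Areg and Epgn, which varied more, differed by 0.594.

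The other genes of the pathway were taken from lists of 58 genes, of which 56 were tested. At the abdomen 17 rose and 8 fell, at the back 23 and 9 and at the cheek 19 and 9, against 16.9% rising and 16.0% falling of all genes at the abdomen, 28.0% and 17.9% at the back and 19.7% and 16.9% at the cheek. Among 6 further ERBB ligand and receptor genes, Egf fell at all 3 sites, from 1.40 to 0.488, 2.22 to 0.540 and 3.18 to 1.12 FPKM (limma adjusted p = 0.037, 9.1e-04 and 0.0039). Nrg1, a ligand of ERBB3 and ERBB4, rose at all 3 sites from 0.102, 0.0825 and 0.265 to 0.877, 0.920 and 1.78 FPKM (0.0044, 9.5e-04 and 2.5e-04). Nrg4, a ligand of ERBB4, fell at abdomen and cheek (-0.67 and -0.70, limma adjusted p = 0.0095 and 0.0065) and Nrg2, which binds ERBB3 and ERBB4, at the cheek (-0.85, limma adjusted p = 0.0031). Erbb4 was at most 0.0900 FPKM and Nrg3 at most 0.0100 in any library, and neither was tested.

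Of 11 genes for ligand shedding and its regulators, 5, 8 and 7 rose at abdomen, back and cheek and 2 fell at each. Of all tested genes 16.9%, 28.0% and 19.7% rose and 16.0%, 17.9% and 16.9% fell. The metalloproteinase gene Adam8 rose 4.56-, 8.06- and 6.35-fold and Adam12, which can shed HB-EGF, 4.71-, 5.48- and 7.34-fold (limma adjusted p at most 9.7e-06). Timp3, an inhibitor of the sheddase ADAM17, fell 2.21-, 1.99- and 2.06-fold (means of 61.0, 58.1 and 69.5 FPKM in unwounded skin and 28.0, 29.2 and 34.2 in wounds, limma adjusted p at most 1.5e-04). Rhbdf1 (iRhom1), a cofactor of ADAM17, fell at the back (-0.33, limma adjusted p = 0.033), and its values of -0.25 and -0.23 at abdomen and cheek missed the threshold.

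Of 17 genes of the adaptors and the RAS-MAPK cascade, 5, 5 and 3 rose and 1, 2 and 1 fell. The numbers that rose were near the shares of all tested genes at back and cheek (28.0% and 19.7%). At the abdomen they were above that share (16.9%). Map2k1 (MEK1) rose by 0.46, 0.63 and 0.49 and the adaptor gene Grb2 by 0.41, 0.50 and 0.47 on the log2 scale (limma adjusted p at most 0.0036). Sos2, an exchange factor for RAS, fell at all 3 sites (-0.27, -0.51 and -0.24, limma adjusted p at most 0.045).

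Of 14 genes of receptor degradation and feedback inhibition, 2, 4 and 3 rose and 3, 4 and 3 fell. The numbers that rose were near the shares of all tested genes (16.9%, 28.0% and 19.7%), of which 16.0%, 17.9% and 16.9% fell. Dusp5, an ERK phosphatase, rose at all 3 sites (0.90, 1.15 and 0.92, limma adjusted p at most 3.9e-04), and Dusp6, another, at back and cheek (0.60 and 0.36). Lrig1, which promotes degradation of ERBB receptors, fell at all 3 sites (-0.47, -0.54 and -0.59, limma adjusted p at most 0.0043), and Spry1 at back and cheek (-0.54 and -0.59). Of 10 genes that respond to MAPK signalling, 4, 5 and 5 rose and none fell, against the same shares of all tested genes. Plaur (the urokinase receptor) rose 5.61-, 7.27- and 9.16-fold, Fosl1 (an AP-1 subunit) 3.02-, 6.36- and 4.95-fold and Phlda1 1.46-, 1.60- and 1.51-fold (limma adjusted p at most 0.0088). Egr1, an immediate early gene, rose at back and cheek (1.37 and 0.63, limma adjusted p = 2.4e-04 and 0.030) and not detectably at the abdomen (0.23, 0.40). Several of these genes are also expressed by neutrophils and macrophages, whose marker sums were higher in the wound in 12 of 12 mice (macrophage 375 to 765 FPKM in unwounded skin and 701 to 1180 in wounds), while mast cell sums were higher in 6 and lower in 6. The part of these cells in the values was not tested.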

How the data were processed

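Total RNA of 24 punches was sequenced on a BGISEQ-500 instrument (paired-end reads). The authors' provider mapped reads to GRCm38/mm10 with HISAT2 and Bowtie2 2.2.5 and quantified them with RSEM 1.2.12, and the authors deposited FPKM rounded to 2 decimals. A second deposited table holds the log2 fold changes and adjusted p-values of the authors' DESeq2 comparisons and was not used.

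A gene was tested if 4 or more libraries of the fit reached 0.5 FPKM. Tests were run on log2(FPKM + 0.5) with limma 3.58.1 and statmod 1.5.0 (trend, robust) in R 4.3.3. Wound effects were fitted over the 24 libraries with the 12 mice as terms, and sites over the 12 unwounded or the 12 wound libraries. P-values were adjusted by Benjamini-Hochberg over all tested genes, with a threshold of 0.05. Fold changes on this scale understate those of low genes. Correlations used 100000 permutations (Python 3.11.15, scipy 1.17.1), two-sided.

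The pairing of wound and unwounded skin by mouse is given in the labels. Across genes, the deviations of these libraries correlated with a mean r of 0.322 (abdomen), 0.348 (back) and 0.281 (cheek), lowest -0.0299, against -0.108, -0.116 and -0.0958 for different mice. The labels use the same mouse numbers at the 3 sites. They were taken as 12 different mice, because the study describes wounding each mouse at a single site. Sites were therefore compared without pairing.

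The 10 genes, pathway lists and marker lists were chosen with earlier results of these data known. Named pathway genes are all of the further ligands and ERBB4, and in each other list the 2 highest and 2 lowest mean log2 fold changes among genes called at 1 site or more. A gene that this rule names is not reported here. In simulated data, a log2 difference of 1 was given to 199 tested genes, and 179 of them were called for the cheek wound (89.9%), 146 by the F test (73.4%) and 165 between cheek and back wounds (82.9%). Of the genes without a difference, 14, 3 and 5 were called. Each simulated gene had normal noise with the same spread in every group. Areg had an SD of 6.21 FPKM in abdomen wounds and 0.201 in unwounded abdomen. The simulated shares therefore do not give the power for genes such as Areg.

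Alternatives were pseudocounts of 0.1 and 1, a filter at 1 FPKM or none, scaling by median ratios or quantiles, limma without trend and robustness, no mouse term, other sets of libraries, a threshold of 0.001, each mouse left out and, added after seeing the data, the mean log2 level of marker genes in place of their sum. Reference sequences are from RefSeq (GRCm38.p6); protein sequences were not used here.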

Additional observations from a re-analysis of the deposited data

Results flagged for a closer look

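In 2 of the 60 groups of 4 libraries tested, a single library lay farther from the others than Dixon's 95% critical value allows, where chance flags about 1 in 20 groups. Areg was 3.68 FPKM in the unwounded cheek library of mouse 4 and 1.43 to 1.69 in the other 3, and this was also the library with 4280 FPKM of hair follicle markers. Btc was 5.12 FPKM in the wound of abdomen mouse 1 and 10.6 to 12.0 in the other 3 abdomen wounds, and this wound had the highest summed wound-edge keratinocyte (17200 FPKM) and neutrophil (2390 FPKM) markers of the 12. The part of these markers in either value was not tested.

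Errfi1 was lower in the wound in 4 of 4 abdomen mice and higher in 4 of 4 cheek mice, and its wound effect was 0.363 larger in the cheek on the log2 scale. Neither this difference (limma adjusted p = 0.45) nor the F test over the 3 sites (0.41) passed the threshold. Some of the Errfi1 changes were close to none, with log2 values of -0.0062 and -0.013 in abdomen mice 1 and 4 and 0.044 in cheek mouse 2. The share of all genes with such a split of directions was not counted.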

How the results depend on the processing

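Over 90 values of the 10 genes, 722 of 750 refits with another setting kept the direction and side of the threshold, 10 lost and 13 gained a call and 5 changed sign. At a threshold of 0.001 the number of genes called fell to 1 at the abdomen wound, 2 at the cheek wound and 0 for unwounded back against abdomen and for cheek wounds against abdomen or back wounds. Unwounded cheek against back gave 1 gene with a pseudocount of 0.1 (Areg) and with all 24 libraries as 6 groups (Egfr). Cheek against abdomen wounds gave 2 genes with median-ratio scaling (Btc and Erbb2, both lower), 3 with quantile normalisation and 2 with all 24 libraries, and cheek against back wounds gave 0 with no filter, either scaling or all 24 libraries. Without the replicate block (the mouse term), Epgn lost its calls at back (adjusted p = 0.053) and cheek (0.087) with limma, and no other call changed. Signs changed for Erbb3 under quantile normalisation (-0.012 at the back wound, -0.017 at the cheek wound), for Egfr between back and abdomen wounds (0.024 with median-ratio scaling, 0.00990 with quantile normalisation) and for Erbb2 between cheek and back wounds (-0.0235 with median-ratio scaling). The causes were not tested.

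With 1 mouse left out, between 3 and 3 genes were called at the abdomen wound, 3 and 4 at the back, 4 and 4 at the cheek, 1 and 2 for unwounded back against abdomen, 0 and 1 for back against abdomen wounds, 0 and 4 for cheek against abdomen wounds and 0 and 0 for cheek against back wounds. Of 600 such values of single genes, 25 changed sign, none of them called with all mice. For abdomen wounds the range was -0.037 to 0.36 for Tgfa, -0.33 to 0.58 for Epgn and -0.11 to 0.13 for Erbb3. Erbb3 ranged from -0.015 to 0.14 at the back wound and from -0.078 to 0.14 at the cheek wound. Between unwounded cheek and abdomen the range was -0.14 to 0.067 for Hbegf, -0.12 to 0.32 for Tgfa and -0.012 to 0.32 for Erbb3. Between back and abdomen wounds it was -0.23 to 0.59 for Areg, -0.18 to 0.42 for Hbegf, -0.25 to 0.12 for Tgfa, -0.83 to 0.29 for Epgn and -0.12 to 0.066 for Egfr. Counting error cannot be given, since FPKM hold no counts.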
